A study of Mus musculus with 11 samples.

Results

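The genes of the T cell coreceptors, *Cd4*, *Cd8a* and *Cd8b1*, were examined for open chromatin in 4 types of mouse lymphoid cells. Members were all ATAC-seq peaks that overlapped the body of one of the 3 genes, extended by 20 kb on each side, in the mm10 genome, and there were 62 of them among 298164 peaks in 9 libraries. Of these, 45 lay in the *Cd4* window, 13 in the *Cd8b1* window and 4 in the *Cd8a* window. Peaks of different libraries that shared at least 1 bp were merged into intervals, which gave 15 intervals at the 3 genes of 71400 in all. ATAC-seq, in which a transposase inserts adaptors into accessible DNA, had been performed on CD4 single positive thymocytes (CD4SP, 2 libraries), CD1d-restricted NKT thymocytes (NKT, 2 libraries), bone marrow common lymphoid progenitors (CLP, 3 libraries) and bone marrow innate lymphoid cell precursors (ILCP, 2 libraries). All 9 libraries carried the strain label C57BL/6, and the mice were 4 to 8 weeks old. NKT cells were enriched with CD1d-αGalCer tetramers, CLP were lineage-negative, IL-7Rα+ and Flt3 high with intermediate cKit and Sca-1, and ILCP were lineage-negative, IL-7Rα+, α4β7+ and eGFP+, where eGFP reports *Zbtb16*, the gene of the transcription factor PLZF. The antibodies that depleted lineage-positive cells before CLP were sorted included CD4 and CD8α, so the proteins of these genes helped to choose cells, and whether the lineage stain of ILCP included them is not given in the sources used here. No mouse line is named for the NKT ATAC-seq libraries beyond their strain label. The methods name a Vα14-Jα18 transgenic mouse as the source of NKT cells for chromatin immunoprecipitation, and the *Cd4-Cre* and *Cd4-Zbtb16* transgenic strains that the study also used have names that refer to *Cd4*. A peak list does not separate reads of the chromosomal gene from reads of another copy of the same sequence.

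CD4 binds MHC class II and CD8, a dimer of α chains or of α and β chains, binds MHC class I, and both bring the kinase Lck to the T cell receptor. Thymocytes express neither, then both, and then keep the coreceptor that fits the MHC class their receptor recognizes. *Cd4* is known to be switched on by a proximal enhancer upstream of the gene and switched off by a silencer in its intron 1 that binds Runx factors, and an enhancer used by maturing CD4 T cells has been placed in the same intron. *Cd8a* and *Cd8b1* are neighbours that share a group of enhancers, several of them between the genes. Mouse NKT cells carry CD4 or no coreceptor. The sources used here do not give positions of the silencer and enhancers in mm10, so peaks are named by position only.

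All 3 genes lie on chromosome 6. *Cd4* (ENSMUSG00000023274.14) has 10 exons on the minus strand at chr6:124864692-124888221, *Cd8b1* (ENSMUSG00000053044.8) has 6 exons on the plus strand at chr6:71322788-71337494, and *Cd8a* (ENSMUSG00000053977.13) has 5 exons on the plus strand at chr6:71373427-71379173. The end of *Cd8b1* lies 35932 bp before the start of *Cd8a*, and the windows of these genes overlap by 4068 bp, in which no library had a peak.

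The sequences of 4 stretches under peaks in some cell types only, and of the upstream stretch under a peak in all of them, are given as in GRCm38.p6, on the strand of the gene, with Runx words (TGTGGT or TGCGGT, on either strand) in capitals. The *Cd4* intron 1 stretch from chr6:124885759-124886460 (702 bp) was under a peak in all 6 CD4SP, NKT and ILCP libraries and in no CLP library, and its central 300 bases, chr6:124885959-124886258, lie 1963 to 2262 bp into the gene. The neighbouring stretch chr6:124884856-124885628 (773 bp) was under a peak in the 4 thymic libraries only, and the bases shown are chr6:124885092-124885391. Upstream of *Cd4*, chr6:124900922-124901232 (311 bp) was under a peak in all 9 libraries and is shown from 124900927 to 124901226, while chr6:124901489-124901590 (102 bp, shown whole) was under a peak in all 5 bone marrow libraries and in no thymic library. The 300 bases before the *Cd8b1* start (chr6:71322488-71322787) were under a peak in both CD4SP libraries and in NKT replicate 2.
Cd4 intron 1, CD4SP, NKT and ILCP: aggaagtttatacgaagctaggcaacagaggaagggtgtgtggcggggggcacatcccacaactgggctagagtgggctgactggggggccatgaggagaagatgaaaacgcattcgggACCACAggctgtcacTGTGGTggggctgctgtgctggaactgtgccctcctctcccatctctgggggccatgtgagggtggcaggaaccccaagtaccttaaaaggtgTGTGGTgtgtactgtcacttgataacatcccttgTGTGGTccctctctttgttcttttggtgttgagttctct
Cd4 intron 1, CD4SP and NKT: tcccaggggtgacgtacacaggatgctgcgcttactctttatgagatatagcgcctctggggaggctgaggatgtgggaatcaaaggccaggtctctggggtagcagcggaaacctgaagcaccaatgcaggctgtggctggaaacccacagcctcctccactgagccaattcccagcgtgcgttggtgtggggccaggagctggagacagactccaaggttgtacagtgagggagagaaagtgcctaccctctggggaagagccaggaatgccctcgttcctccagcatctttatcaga
Cd4 upstream, all libraries: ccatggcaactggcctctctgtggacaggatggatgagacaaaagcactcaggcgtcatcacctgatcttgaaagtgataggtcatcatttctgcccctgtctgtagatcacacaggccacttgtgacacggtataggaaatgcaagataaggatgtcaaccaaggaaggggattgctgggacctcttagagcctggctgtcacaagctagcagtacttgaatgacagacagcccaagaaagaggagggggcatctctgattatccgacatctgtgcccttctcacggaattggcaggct
Cd4 upstream, CLP and ILCP: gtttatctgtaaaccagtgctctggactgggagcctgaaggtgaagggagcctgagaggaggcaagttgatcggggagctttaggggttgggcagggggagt
Cd8b1 start, CD4SP and NKT replicate 2: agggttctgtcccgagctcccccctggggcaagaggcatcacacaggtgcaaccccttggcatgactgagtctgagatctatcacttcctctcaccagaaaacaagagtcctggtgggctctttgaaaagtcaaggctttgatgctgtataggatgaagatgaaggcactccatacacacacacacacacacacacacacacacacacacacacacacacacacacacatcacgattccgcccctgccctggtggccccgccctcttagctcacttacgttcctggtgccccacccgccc
The intron 1 stretch shared by CD4SP, NKT and ILCP held 4 Runx words in the bases shown, beginning 2082, 2097, 2190 and 2224 bp from the start site, and 6 in its 702 bp. For scale, the central 300 bases of a merged interval held at least 4 Runx words in 0.244% and at least 1 in 36.6% of the 71400 intervals, but the bases shown are the centre of the shared stretch and not of its merged interval, so the windows were not placed alike. The bases shown of the other stretches held no Runx word. Of stretches not shown, chr6:124900070-124900672 upstream of *Cd4* held 1 in its central 300 bases. The stretches over the *Cd8b1* start (chr6:71322251-71323120) and the *Cd8a* start (chr6:71373156-71373823) held 1 each over their full length. The upstream stretch open in all libraries held 1 GATA word (AGATAA) and 1 E protein word (CAGCTG or CAGGTG), which 14.5% and 37.2% of all intervals held, and the bone marrow stretch held 1 GATA word in its 102 bases. The intron 1 stretch of CD4SP and NKT held 1 TCF/LEF word, 2909 bp from the start site, and the stretch before *Cd8b1* held 2 TCF/LEF words (CTTTGAA or CTTTGAT, in 14.2% of intervals) and 1 E protein word. Each word was searched on both strands and counted on its own. A word is a description of the letters and not a binding site.

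In intron 1 of *Cd4*, the 3 cell types with peaks showed 3 different layouts, and CLP had none. CD4SP libraries had a peak of 1605 bp (chr6:124884856-124886460, replicate 1) and 1835 bp (chr6:124884726-124886560, replicate 2) inside the intron, centred 2.56 and 2.58 kb from the start site, and a separate peak over the start site itself. ILCP libraries had a single intron peak, chr6:124885759-124886721 (963 bp) in replicate 1 and chr6:124885629-124886642 (1014 bp) in replicate 2, centred 1.98 and 2.09 kb into the gene, nearer to the start site than in CD4SP, and no peak at the start site. NKT libraries had a peak that ran unbroken from upstream of the start site into the intron, and a smaller peak at the far end of the intron. The long peak measured 7003 bp in replicate 1 (chr6:124881806-124888808) and 7623 bp in replicate 2 (chr6:124881115-124888737). Of the 8386 bp of intron 1, peaks covered 22.2% and 25% in CD4SP, 84.4% and 95.4% in NKT, 11.5% and 12.1% in ILCP and 0% in each CLP library.

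**Figure D1:**
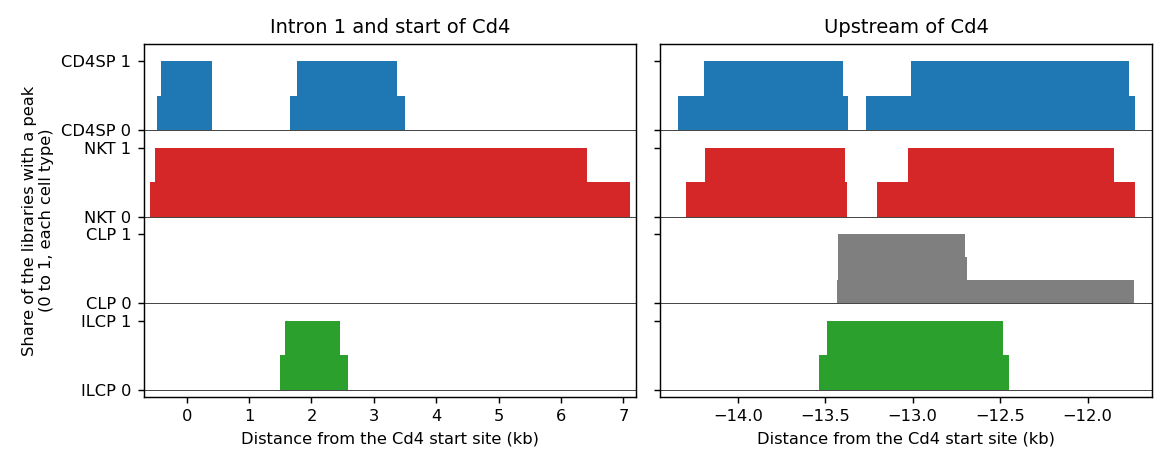
Share of the libraries of each cell type with a peak (0 to 1) at each base, by distance from the Cd4 start site in kb, in intron 1 and at the start (left) and upstream (right). In intron 1 the CD4SP and ILCP blocks are separate and narrow, the NKT block runs on for over 7 kb in replicate 2 (7623 bp), and CLP has none.

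The NKT peaks were among the widest called. The 7003 bp peak was number 5 by width of 34701 in NKT replicate 1 and the 7623 bp peak number 5 of 38793 in replicate 2, at 7.97 and 7.88 times the median width. In both libraries the 4 wider peaks all lay in a 69.8 kb stretch (chr11:3130360-3200194) in which each of the 9 libraries had a peak of at least 18467 bp. The widest *Cd4* peak of the CD4SP libraries was at most 1.86 times the median width, and that of the CLP and ILCP libraries at most 1.64 times. Whether further copies of *Cd4* sequence in the mice took part in the NKT peaks was not tested.

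Peaks were ranked by the deposited score of the peak caller within each library and given as the upper percent of that library, so that a low value is a high-scoring peak. The best peak over intron 1 and the start of *Cd4* stood in the upper 0.369% and 1.38% in NKT, 16.3% and 13.9% in CD4SP, and 30.4% and 42.4% in ILCP. Each NKT value was better than both CD4SP values, which were better than both ILCP values. Averaged over the libraries of a type, the upper percent was 15.1 in CD4SP and 0.873 in NKT, a ratio of 17.3, which was number 4 among the 24221 intervals open in all 4 thymic libraries, whose median ratio was 1. Both NKT peaks had the score 3100, which 108 and 468 peaks of their libraries shared. Tied peaks took the rank of the last of them, so the ratio and its place depend on the number of ties. They also rest on 2 unequal NKT values and were not recomputed with a library left out. Peaks ranked better in both NKT than in both CD4SP libraries at 19.9% of those intervals. With 2 libraries against 2, the smallest p of an exact permutation test is 0.333, so this difference in rank was not tested. The separate CD4SP peaks at the start site ranked far lower, in the upper 71.3% and 65.7%.

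A broad interval upstream of *Cd4* (chr6:124899950-124902565) was the only one of the 15 open in all 9 libraries, and it also ranked best in NKT. Its best peak stood in the upper 0.784% and 2.8% in NKT, 24% and 21.1% in CD4SP, 28.4% and 19.7% in ILCP, and 91.6%, 73.8% and 43% in CLP. CD4SP and ILCP values overlapped on this scale, which depends on the length of each list. All 3 CLP values were behind those of every other library, as at 5.8% of the 9464 intervals open in all 9 libraries. The mean upper percent was 22.5 in CD4SP and 1.79 in NKT, a ratio of 12.6, number 7 of the 24221. This ratio too rests on unequal NKT values and was not recomputed with a library left out. Of the 10 intervals with the largest ratios, 8 also had a peak in the upper 10% of both ILCP libraries, and the remaining 2 were these *Cd4* intervals, a feature noticed after the values were seen.

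**Figure D2:**
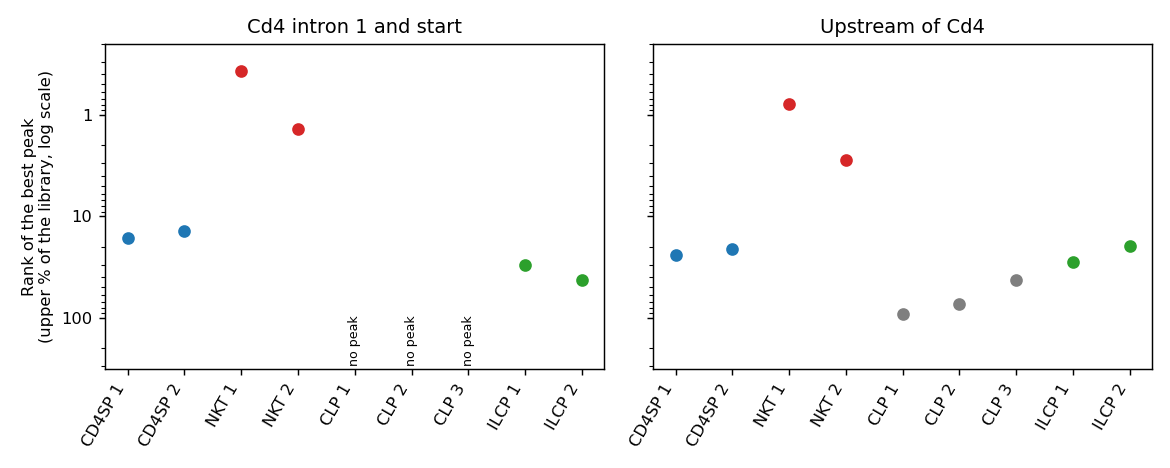
Rank of the best peak in each library (upper % of that library's peaks, log axis, best at the top) over intron 1 and the start of Cd4 (left) and upstream of Cd4 (right), each point a library. Both NKT points lie above all others in each panel, from 0.369 to 2.8%, and CLP has no peak in intron 1.

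The upstream peaks did not sit in the same place in thymus and bone marrow. In all 4 thymic libraries there were separate peaks, the nearer centred 12.4 to 12.5 kb and the farther 13.8 to 13.9 kb before the start. In both ILCP libraries and in CLP replicates 1 and 2 there was a single peak centred 13 to 13.1 kb before the start. CLP replicate 3 also had a single peak, but it ran on toward the gene and was centred at 12.6 kb. Thus the 102 bp printed for CLP and ILCP (13268 to 13369 bp before the start) fell under the peaks of bone marrow cells and between the peaks of thymocytes. The 648 bp at chr6:124901759-124902406 were under a peak in the 4 thymic libraries only.

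**Figure D3:**
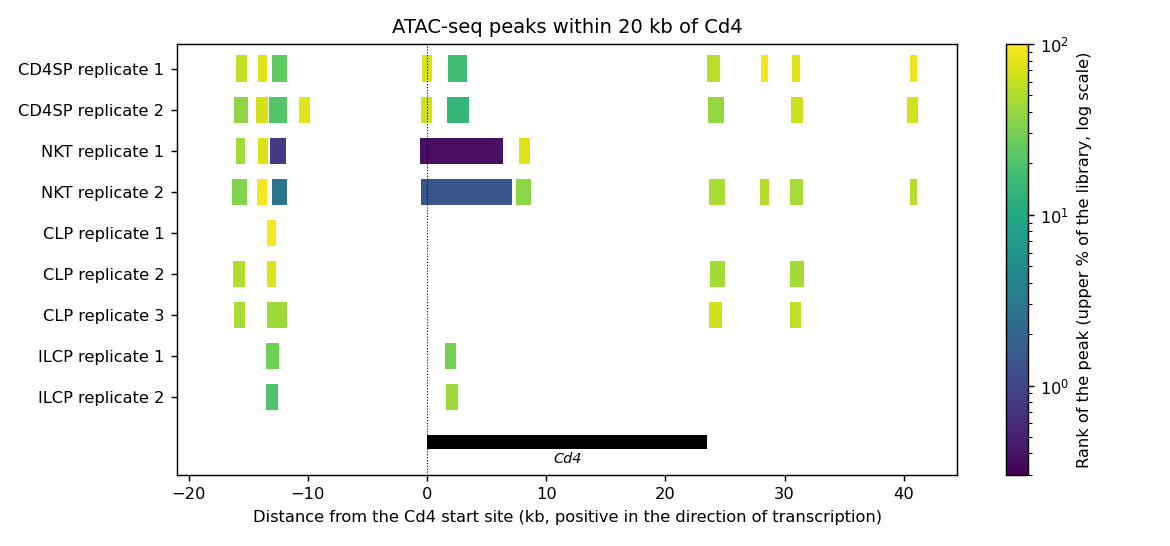
Peaks within 20 kb of Cd4 in each library, by distance from the start site in kb, coloured by rank (upper % of the library, log scale), with the gene body in black. The NKT rows carry the darkest and widest blocks (7003 and 7623 bp), and the ILCP rows hold 2 peaks each.

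The other 7 *Cd4* intervals ranked below both of these in CD4SP and NKT. An interval at chr6:124879472-124880729, 8.12 kb into the gene over the end of intron 1 and exon 2, was open in both NKT libraries (upper 73.1% and 36.6%) and in no other library. The interval at chr6:124903243-124904545, centred 15.7 kb upstream near the end of *Lag3*, an inhibitory relative of *Cd4*, was open in both CD4SP, both NKT and 2 of 3 CLP libraries, and its rank changed little, from a mean upper 47.1% in CD4SP to 38.9% in NKT (a ratio of 1.21, number 6738 of the 24221). Intervals at the starts of the neighbours *P3h3*, a collagen prolyl hydroxylase gene (chr6:124856597-124857762), and *Gpr162*, an orphan receptor gene (chr6:124863192-124864747), were each open in both CD4SP, NKT replicate 2 and CLP replicates 2 and 3. The remaining 3, at chr6:124846997-124847937, chr6:124859500-124860262 and chr6:124898059-124899002, were open in 3, 2 and 1 libraries. No ILCP library had a peak at any of these 7.

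At *Cd8b1*, which encodes the CD8 β chain, the best peaks were in CD4SP thymocytes, which do not keep CD8. The interval over the *Cd8b1* start (chr6:71321977-71323399) stood in the upper 18% and 20.5% in CD4SP and 41.3% in NKT replicate 2, with no peak in the other 6 libraries. It also lies at the start of *Smyd1*, a muscle methyltransferase gene that starts 555 bp away on the other strand, so that the peak cannot be assigned to either gene. An interval 15 kb upstream (chr6:71307361-71308285) was open in the same 3 libraries, in the upper 54.4%, 60.2% and 80.2%. The interval 6.17 kb upstream (chr6:71316116-71317112) was the only one at the *Cd8* genes open in more than 1 CLP library, in the upper 62.6% and 60.5% in replicates 2 and 3, 75.3% and 77.3% in CD4SP and 86.2% in NKT replicate 2.

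Between *Cd8b1* and *Cd8a*, where several of the shared enhancers are known to lie, the whole 35932 bp held a single interval outside the *Cd8a* start (chr6:71341091-71341854, 18.7 kb from the *Cd8b1* start). It was open in CD4SP replicate 2 (upper 93.4%) and NKT replicate 2 (upper 99.3%), close to the lowest score each list holds. At *Cd8a*, the gene of the α chain that all CD8 dimers contain, the start (chr6:71372905-71373914) had a peak in CD4SP replicate 2 (upper 70.7%) and CLP replicate 2 (upper 88%). An interval over intron 4 and exon 5 (chr6:71376418-71377561) was open in both CD4SP libraries, in the upper 51.6% and 49%, and in no other library. NKT replicate 1, CLP replicate 1 and both ILCP libraries had no peak in the *Cd8* windows. Only a range of reads is given for the libraries as a whole, and an absent call is not a measure of closed chromatin.

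**Figure D4:**
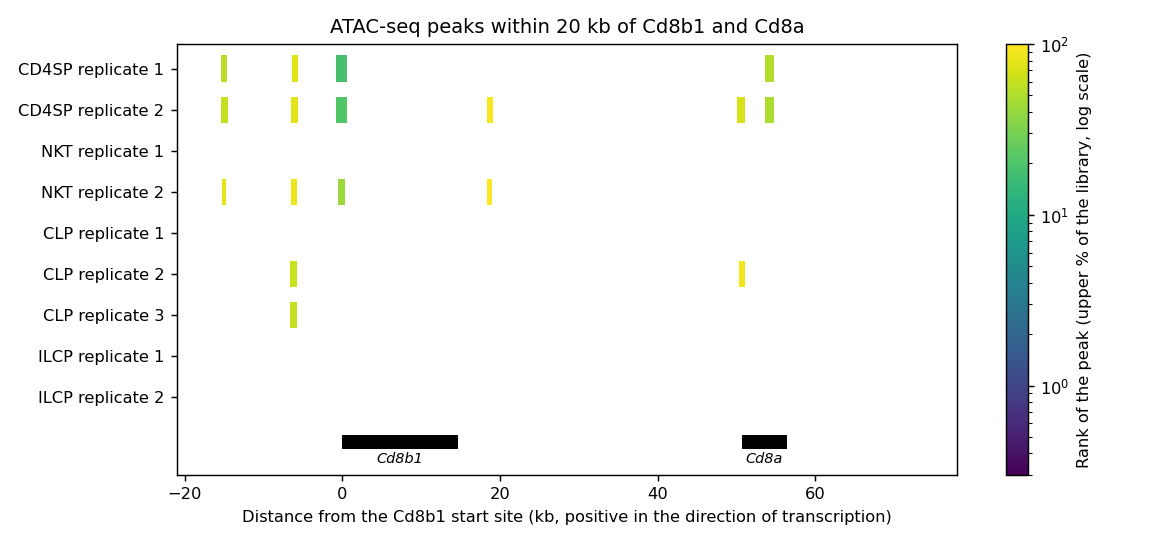
Peaks within 20 kb of Cd8b1 and Cd8a in each library, by distance from the Cd8b1 start site in kb, coloured by rank (upper % of the library, log scale), with gene bodies in black. Both CD4SP rows show peaks at the Cd8b1 start and inside Cd8a, and 4 of 9 rows are empty.

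Peaks per window were counted to compare cell types. At *Cd4* there were 9 and 9 peaks in CD4SP, 5 and 9 in NKT, 1, 4 and 4 in CLP, and 2 and 2 in ILCP. Every thymic library had more peaks than every bone marrow library, with 8 ± 2 (SD, n = 4) against 2.6 ± 1.34 (SD, n = 5), 5.4 more on average (p = 0.00794 by a two-sided exact permutation test, the smallest possible, and 0.0238 adjusted over the 3 genes by the Benjamini-Hochberg method). Such a separation held for 10.3% of 21951 protein-coding genes, so *Cd4* was not unusual in it. The difference fell to 2.45 with equal numbers of peaks per library, to 2.15 with the higher-scoring 50% of peaks, to 1.85 in the gene body and to 3.05 in a window of 10 kb. The groups were no longer fully separated with the higher-scoring 50% (exact permutation p = 0.0397, 0.0714 adjusted) and in windows of 10 kb (exact permutation p = 0.0238, 0.0714 adjusted) and 50 kb (exact permutation p = 0.0317, 0.0952 adjusted), where the adjusted call was lost. It was also lost when any 1 library other than NKT replicate 1 was left out (exact permutation p adjusted, 0.0536 to 0.0857), with fewer arrangements of the labels to draw on. Per 10000 peaks of the library, the *Cd4* window held 1.44 to 2.67 in thymic and 0.517 to 0.997 in bone marrow libraries. Tissue, sorting and cell type cannot be told apart in this comparison. The libraries are replicates of CD4SP and NKT in thymus and of CLP and ILCP in bone marrow. The test counts libraries and not cell types, so its p does not extend to other cell types of either tissue.

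Within the thymus, *Cd4* had 7 ± 2.83 peaks in NKT and 9 ± 0 in CD4SP (SD, n = 2 each, exact permutation p = 1), although peaks covered more of its window in NKT (10836 and 16074 bp) than in CD4SP (8388 and 10594 bp). NKT replicate 1 lacked the 4 peaks downstream of the gene that NKT replicate 2 had, and without this library the difference in peaks was 0. The peak count and the covered length thus differed in direction. In bone marrow, *Cd4* had 2 ± 0 peaks in ILCP (SD, n = 2) and 3 ± 1.73 in CLP (SD, n = 3), with an exact permutation p of 0.4 (0.6 adjusted). With a library left out the difference of -1 ran from -2 to -0.5. Within the gene body alone the order was the reverse, as both ILCP libraries had the intron 1 peak and no CLP library did, with a difference of 1 (exact permutation p = 0.1, the smallest these libraries allow).

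*Cd8b1* had 3 and 4 peaks in CD4SP, 0 and 4 in NKT, 0, 1 and 1 in CLP, and 0 and 0 in ILCP. Thymic and bone marrow libraries overlapped, with 2.75 ± 1.89 (SD, n = 4) against 0.4 ± 0.548 (SD, n = 5, exact permutation p = 0.0556, 0.0833 adjusted). Without NKT replicate 1, the thymic library with none, the difference was 3.27 (exact permutation p = 0.0179, 0.0268 adjusted), past the threshold that the full set did not reach. The *Cd8b1* difference was -1.5 for NKT minus CD4SP (exact permutation p = 1) and -0.667 for ILCP minus CLP (exact permutation p = 0.4, 0.6 adjusted). *Cd8a* had 1 and 2 peaks in CD4SP, 0 and 0 in NKT, 0, 1 and 0 in CLP and 0 and 0 in ILCP. NKT lay below CD4SP without overlap at *Cd8a*, as at 4.97% of protein-coding genes (exact permutation p = 0.333, the smallest possible, 1 adjusted). Thymic libraries had 0.75 ± 0.957 *Cd8a* peaks (SD, n = 4) and bone marrow libraries 0.2 ± 0.447 (SD, n = 5, exact permutation p = 0.405 before and after adjustment). With a library left out this difference of 0.55 ran from 0.133 to 0.8. Both ILCP libraries were without a peak at *Cd8a* and at *Cd8b1*, as at 31.7% of protein-coding genes.

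**Figure D5:**
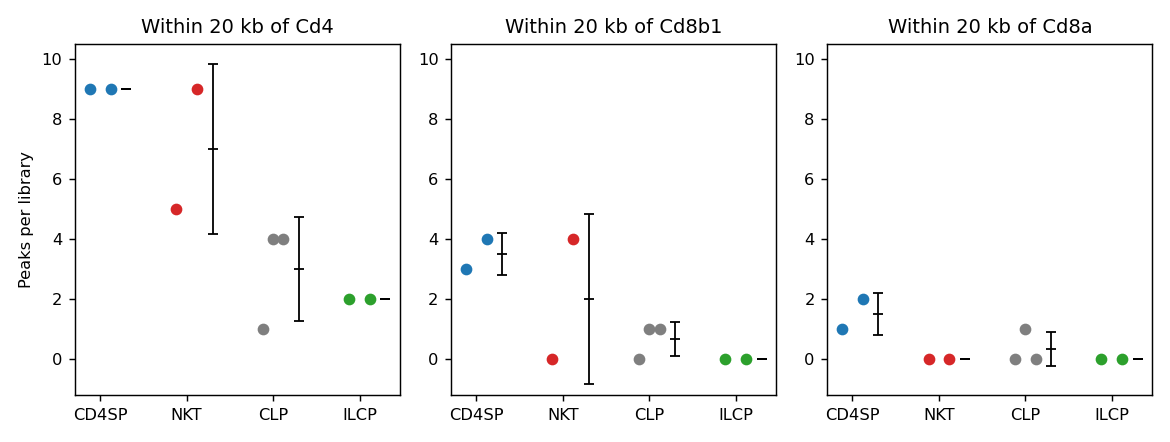
Peaks per library within 20 kb of Cd4, Cd8b1 and Cd8a, each point a library, with the mean (dash) and SD (bars) of each cell type to its right. At Cd4 the 4 thymic libraries (5 to 9 peaks) lie above the 5 bone marrow libraries (1 to 4 peaks).

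An interval was called specific where it was open in every library of a cell type and in none of the type it was compared with. Of the 15 intervals, 1 was specific to NKT against CD4SP (the one at *Cd4* exon 2, 4.3% of all intervals), 1 to CD4SP against NKT (the one inside *Cd8a*, 3.46%) and 1 to ILCP against CLP (*Cd4* intron 1 and start, 6.34%). None was specific to CLP against ILCP, where the share over all intervals was 5.97%, to thymus against bone marrow (7.04%) or the reverse (2.04%). Counts of 0 or 1 of 15 were near these shares. Several of these counts rested on 1 library or setting. Without NKT replicate 2 there were 7 CD4SP-specific intervals, without CD4SP replicate 1 there were 3, and with the higher-scoring 50% of peaks 0. The NKT-specific call was lost with equal numbers of peaks per library and with the higher-scoring 50%, and the ILCP-specific call where peaks had to cover 50% of the interval. Without CLP replicate 1 there were 4 CLP-specific intervals, and without NKT replicate 1 there were 3 thymus-specific ones. No share over all intervals was computed under these settings, and leaving out a library can only keep or raise such a count. Both CD4SP libraries were open at 10 of the 15 intervals, both NKT libraries at 4, all CLP libraries at 1 and both ILCP libraries at 2. No share over all intervals was computed for these counts. They also depend on the length of each list and on the number of libraries required, which was higher for CLP, so they do not rank the cell types.

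Genes of 15 factors known to act on coreceptor genes were examined in the same way. An interval specific to CD4SP against NKT lay within 20 kb of 9 of them, against 8.36% of protein-coding genes, and an interval specific to NKT near 5, against 11.5%. These genes differ in length and in number of peaks, so the shares describe the list only. *Satb1*, a chromatin organizer, had 7 CD4SP-specific intervals, with 13 and 17 peaks in CD4SP and 5 and 5 in NKT. *Lef1*, a partner of β-catenin, had 4, and *Tox*, which CD4 T cells need in order to develop, had 3. *Zbtb7b*, which encodes the CD4 lineage factor ThPOK, *Runx1* and *Runx3*, whose products bind the *Cd4* silencer, had 2 each, and *Patz1*, *Tcf7* and *Myb* had 1 each. NKT-specific intervals numbered 2 at *Runx1* and 1 each at *Lef1*, *Bcl11b*, *Satb1* and *Ikzf1*. Intervals specific to ILCP against CLP lay near 4 genes (*Runx1*, *Tox*, *Tcf7* and *Ikzf1*, against 13.8% of genes), and those specific to CLP near 6 (*Runx1*, *Runx3*, *Tox*, *Lef1*, *Ikzf1* and *Tcf12*, against 16.4%). An interval specific to all thymic against all bone marrow libraries lay near 11 of the 15 genes (against 18.7% of protein-coding genes), with 5 at *Bcl11b*, a T lineage commitment factor, and the reverse near 1, *Ikzf1* (against 5.26%). *Cbfb*, the shared partner of Runx factors, and *Gata3* had no specific interval in any of the 6 comparisons.

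The genes whose number of peaks followed that of a coreceptor gene most closely over the 9 libraries were *Hddc3* (Pearson r = 0.991), *Mfsd4a* (0.988) and *Elk4* (0.986) for *Cd4*, among 7234 genes compared. For *Cd8b1* they were *Klhl22* (0.982), *Gemin5* (0.971) and *Scarf2* (0.969) among 14784, and for *Cd8a*, with its 4 peaks, *Scaf11* (1), *Clec2d* (0.932) and *Rasa1* (0.932) among 16603. All counts of a library depend on how many peaks were called in it, which the genes share, so these values are a description over 9 libraries.

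Cell labels were compared with peaks within 1 kb of the starts of marker genes. All 5 T cell markers had such a peak in every thymic library, against 1 to 3 of 5 in bone marrow libraries, where *Cd3e* and *Cd3g* had none. Of the 4 innate lymphoid or NKT markers, 3 had one in each CD4SP library, all 4 in each NKT library and 2 to 3 in each bone marrow library, so the list told NKT but not ILCP from the other libraries. Among them, *Zbtb16* had a start peak in both NKT, both ILCP, 1 of 3 CLP and no CD4SP library, *Il2rb*, a receptor chain for IL-2 and IL-15, in all thymic and no bone marrow libraries, *Il7r* in all libraries but 1 ILCP, and *Id2* in all 9. All 3 progenitor markers had one in every bone marrow library, whereas thymic libraries had none but *Kit* in NKT replicate 2. Of the myeloid markers, *Elane* had none throughout, *Mpo* and *Csf1r* had one in 1 CLP library each, and *Spi1* had one in both CD4SP, both NKT, all 3 CLP and 1 of 2 ILCP libraries. Of the B lineage markers, *Cd79a* had none throughout, *Ebf1* had one in all 9 libraries, and *Pax5* had one in 1 CD4SP, 2 NKT, 2 CLP and 1 ILCP library, so a start peak at these factors did not follow the labels. The libraries held 19343 to 41535 peaks.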

How the data were processed

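Peak lists from ATAC-seq were analysed in 9 libraries, grouped by their labels. Reads of 50 bp were aligned by the authors with bowtie (at most 2 mismatches) to mm10, and MACS was run on each library without pooling. The processing notes name Bowtie, Picard and HOMER. The methods give 30000000 to 50000000 reads for the ATAC-seq libraries as a whole. The number for each library and the MACS version and settings are not given in the sources used here, so the depth behind a single peak is unknown. The deposited score of each peak was used only as a rank within its library. It was never under 120, and 58 to 1265 peaks per library were tied at 3100 and took the same rank. Positions were counted from 1. Peaks sharing at least 1 bp were merged, and genes were those of GENCODE M21 on GRCm38.p6. Peaks per window (the gene with 20 kb on each side) were compared by exact two-sided permutation of library labels with Benjamini-Hochberg adjustment over the 3 genes, in Python 3.11.15 with numpy 2.4.6, pandas 2.3.3 and scipy 1.17.1. The code was tested on simulated data. Replicates were biological, as the methods state. The p-values are set by the spread between these libraries, which are nested in cell types, and not by that between cell types or tissues.

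Members, gene lists and tests were chosen with earlier results of these data known. Beside the 3 genes, named genes were those with a member interval within 1 kb of their start, the 3 protein-coding genes most like each member by Pearson r of peaks per library (with at least 50% of the member's peaks, and none shared), and factors with a specific interval. Others named for their neighbourhood or for having no such interval were chosen after their values were seen. Alternatives were equal numbers of peaks (19343), the higher-scoring 50%, the gene body, windows of 10 and 50 kb, and peaks counted by their midpoint. Further alternatives were covered base pairs, peaks per 10000, at least 50% overlap, open in any library, blocks by replicate number and each library left out. The removal of peaks within 1 kb of another gene's start was added after seeing the data. The Runx1 immunoprecipitation library and its input were not analysed here. 1 marker gene is not reported here.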

Additional observations from a re-analysis of the deposited data

Results flagged for a closer look

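The *Cd4* window held 5 peaks in NKT replicate 1, while the other 3 thymic libraries all held 9, so this library stood apart from its tissue. It had no peak downstream of *Cd4*, where NKT replicate 2 had 4, among them those at the *P3h3* and *Gpr162* starts. The *Cd8a* window held 1 peak in CLP replicate 2, while the other 4 bone marrow libraries held none; this peak was in the upper 88% of its library. In all, 6 groups were examined in this way, and chance flags about 1 in 20 groups of continuous values. That rate does not hold for small tied counts such as these, where any library that alone differs from the rest stands apart in this way.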

How the results depend on the processing

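Of the values recomputed under another setting, 182 kept their direction and their side of the threshold by unadjusted p or stayed near the value reported, 7 differences that had not passed the threshold fell to 0, and 24 values changed. For NKT minus CD4SP and ILCP minus CLP the side of the threshold was fixed, as the smallest exact permutation p is 0.333 and 0.1. Interval counts of 0 that stayed 0 are also among the 182, so this number is not a measure of robustness. The difference at *Cd4* between thymus and bone marrow kept its direction and an unadjusted exact permutation p under 0.05 in all 18 settings, at 5 to 6.4 with a library left out and 4.7 without peaks at another gene's start. Adjusted over the 3 genes, it passed in 7 of the 18 and did not in 11, with adjusted p from 0.0238 to 0.0952. Of these 11, 8 leave out a library, which raises the smallest p that can be reached. The *Cd4* difference of NKT minus CD4SP ran from -4 to 0 with a library left out (0 without NKT replicate 1), and turned from -2 to 0.5 with equal numbers of peaks, 1.5 with the higher-scoring 50% and 3960 bp as covered base pairs, none past the threshold. That of ILCP minus CLP turned from -1 to 0.333 with equal numbers of peaks and without peaks at another gene's start, 0.667 with the higher-scoring 50% and 1 in the gene body. At *Cd8b1*, NKT minus CD4SP ran from -3.5 to 0.5 with a library left out, and was 0.5 without NKT replicate 1. Thymus minus bone marrow at *Cd8b1* passed the threshold before adjustment in the gene body (0.75, exact permutation p = 0.0476), with equal numbers of peaks (1, p = 0.0476 by the same exact permutation test), with the higher-scoring 50% (0.75, p = 0.0476, exact permutation) and without NKT replicate 1 (3.27, from a range of 1.93 to 3.27). After adjustment over the 3 genes the exact permutation p was 0.0714 in each of the first 3 of these and 0.0268 without NKT replicate 1. Intervals specific to CD4SP against NKT numbered 0 with the higher-scoring 50%, 3 where any library sufficed, and 1 to 7 with a library left out (3 without CD4SP replicate 1, 7 without NKT replicate 2). Those specific to NKT numbered 0 with equal numbers of peaks and with the higher-scoring 50%, and 2 where 50% of the interval had to be covered, a setting under which none was specific to ILCP (0). Those specific to CLP against ILCP numbered 5 where any library sufficed and 0 to 4 with a library left out (4 without CLP replicate 1), and those specific to thymus 8 and 0 to 3 (3 without NKT replicate 1). No share over all intervals was computed under these settings, so the counts describe these windows only. The cause of these changes was not tested.

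With replicate numbers as a replicate block, differences were -2 (*Cd4*), -1.5 (*Cd8a*) and -1.5 (*Cd8b1*) for NKT minus CD4SP and -0.5 for each gene for ILCP minus CLP. An exact permutation of signs within 2 pairs gives no p under 0.5, so no call could have changed. The labels do not say what a shared number stands for, and with 2 pairs the numbers were not taken to pair the libraries. The correlation of deviations of same-numbered libraries over 17744 genes was 0.486 in the thymus and -0.0382 in bone marrow. Only a range of reads is given for the libraries as a whole, so a missing peak cannot be told from fewer reads in that library.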
